A study of Mus musculus with 4 samples.

Results

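M-opsin-rich cones are cone photoreceptors of the mouse retina that carry transcripts of the medium-wavelength opsin gene Opn1mw and few or none of the short-wavelength opsin gene Opn1sw. They were chosen barcode by barcode from single-cell RNA-seq of 4 retinas at 30 days of age. A barcode counted as a cone when it had at least 2000 unique molecular identifiers (UMIs, 1 per captured transcript), at most 20% mitochondrial UMIs, and at least 15 UMIs making up at least 0.5% of its total from the cone genes Arr3, Pde6h, Gnat2, Pde6c and Gngt2. It was typed when both opsins together gave at least 5 UMIs. It was M-opsin-rich when Opn1sw made up under 0.3 of those opsin UMIs, and S-opsin-rich at 0.7 or more. This gave 268 M-opsin-rich cones among 733 typed cones and 35191 barcodes. They were 93 and 69 in WT and 45 and 61 in NLGF, where here and below the female is given before the male of each genotype. The other typed cones were 366 S-opsin-rich and 99 of intermediate ratio.

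Each library held 1 retina of 1 mouse, with 1 female and 1 male wild type (WT) and 1 female and 1 male NLGF. NLGF is the usual short name of a line with a humanised and mutated amyloid beta sequence placed in its own App gene, which stays under its own promoter. Zygosity, strain background and litter are not analysed here. With 2 animals per genotype, differences between animals or preparations and the genotype cannot be told apart.

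Cones serve daylight and colour vision. A cone opsin that has absorbed light activates the cone transducin (Gnat2, Gnb3 and Gngt2), which activates the cone phosphodiesterase (Pde6c and Pde6h), and cyclic GMP falls until cation channels close. Arr3, cone arrestin, ends the response, and guanylate cyclase with calcium-sensing activators such as Guca1a restores cyclic GMP. Many mouse cones carry both opsins, with M-opsin prevailing dorsally and S-opsin ventrally. Thyroid hormone receptor beta (Thrb) is known to turn M-opsin on and, with the retinoid receptor Rxrg, to turn S-opsin off. The ventral factor Vax2 takes part in the gradient.

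The promoters of both opsin genes and of Samd7, a gene of a retinal repressor complex, are shown because these genes divide the cone types. The letters are the 250 bases before the RefSeq transcription start (GRCm38.p6), 5′ to 3′ on the gene's own strand. Capitals mark TAATCC, the core of sites for the photoreceptor factors OTX2 and CRX, and AGGTCA, a nuclear receptor element, searched on both strands. The motifs do not overlap each other.
Opn1mw: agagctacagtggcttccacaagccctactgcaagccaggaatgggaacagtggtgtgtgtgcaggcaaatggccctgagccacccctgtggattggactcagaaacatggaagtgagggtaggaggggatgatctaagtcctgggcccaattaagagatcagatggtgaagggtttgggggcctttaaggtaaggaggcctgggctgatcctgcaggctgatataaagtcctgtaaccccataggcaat
Opn1sw: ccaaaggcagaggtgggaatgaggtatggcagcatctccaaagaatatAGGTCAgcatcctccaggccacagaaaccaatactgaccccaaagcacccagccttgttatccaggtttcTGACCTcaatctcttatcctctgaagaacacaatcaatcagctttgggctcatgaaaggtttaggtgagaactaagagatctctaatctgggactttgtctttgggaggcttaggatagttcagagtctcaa
Samd7: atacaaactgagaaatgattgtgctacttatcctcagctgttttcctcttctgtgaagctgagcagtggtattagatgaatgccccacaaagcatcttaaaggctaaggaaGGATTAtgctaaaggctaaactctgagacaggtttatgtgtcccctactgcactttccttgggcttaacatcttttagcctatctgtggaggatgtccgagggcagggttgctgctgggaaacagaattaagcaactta
The Opn1mw stretch, chrX:74127216-74127465 on the plus strand, held neither motif. The Opn1sw stretch, chr6:29380514-29380763 on the minus strand, held 2 matches to AGGTCA or its reverse complement TGACCT. The Samd7 stretch, chr3:30746043-30746292 on the plus strand, held 1 match to GGATTA, the reverse complement of TAATCC. Of 32851 promoter windows of this length, 14% held AGGTCA and 6.25% held TAATCC on either strand. A match describes the letters only.

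Most members had no Opn1sw UMI. Of the 268 members, 196 held 0 Opn1sw UMIs and 47 more had a ratio above 0 and under 0.1. The median member held 58.5 Opn1mw UMIs. By contrast, 97 of 366 S-opsin-rich cones held 0 Opn1mw UMIs, and their median was 12.5. Near the threshold, 5 members had ratios from 0.260 to 0.294, and the 6 nearest cones outside it from 0.310 to 0.345. These values chose the members and are descriptions.

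**Figure D1:**
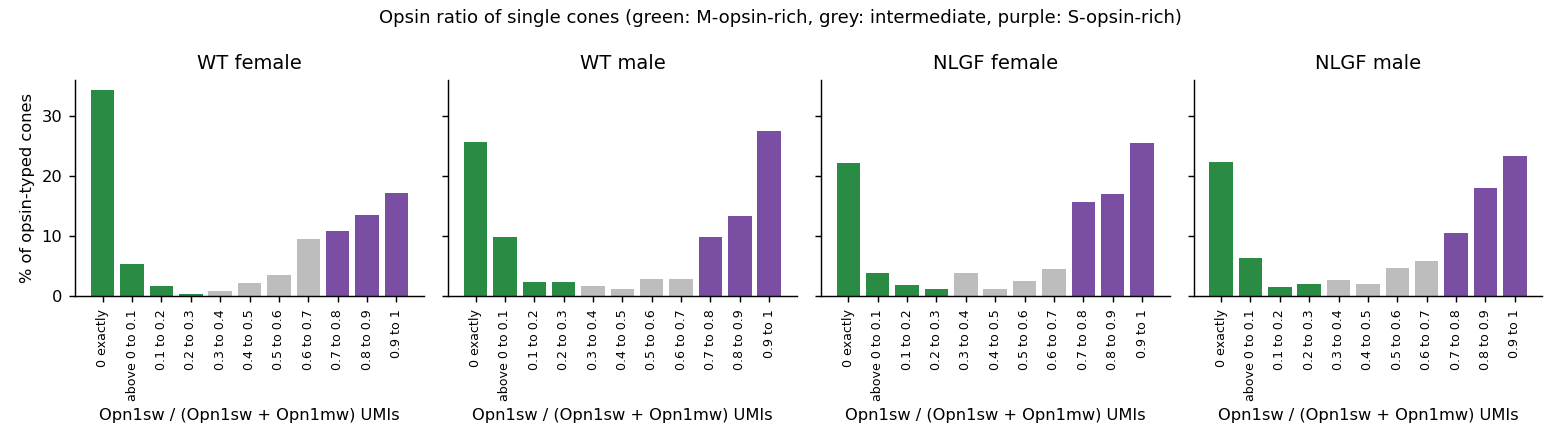
Percentage of typed cones (y axis) by Opn1sw share of opsin UMIs (x axis), with 1 panel per library and green bars for M-opsin-rich, grey for intermediate and purple for S-opsin-rich cones. The green bar at exactly 0 holds 34.4 and 25.7% in WT and 22.2 and 22.3% in NLGF.

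Of the 5 markers given with the label, Opn1mw, Arr3, Pde6h and Gnat2 belong to the rule, so their presence was set by the choice of cells. The fifth, Thrb, averaged 455 ± 83.2 CPM in M-opsin-rich cones and 75.5 ± 7.90 CPM in rods (SD, n = 4 libraries). Values of the rule's own genes are descriptions with no test, in CPM (UMIs per 1000000 UMIs) of the summed cells. Opn1mw was at 5664 and 5514 CPM in WT and 4980 and 6235 CPM in NLGF in M-opsin-rich cones. Opn1sw was at 62.9 and 196 CPM in WT and 130.1 and 170.5 CPM in NLGF. In S-opsin-rich cones Opn1mw averaged 1656 ± 176 and Opn1sw 11231 ± 681 CPM (SD, n = 4 libraries), so M-opsin in S-opsin-rich cones was far above S-opsin in M-opsin-rich cones. Arr3 averaged 3398 ± 437 CPM in M- and 2287 ± 155 CPM in S-opsin-rich cones. Gnat2 averaged 2850 ± 402 and 3257 ± 209.7 CPM, and Pde6h 10757 ± 884 and 10977 ± 897 CPM. Rods, which should lack both opsins, were taken as barcodes within the same limits with at least 3% of UMIs from rod genes and at most 0.2% from the 5 cone genes, so a low cone background in them is partly chosen. They had 12.4 ± 1.98 CPM of Opn1mw and 18.1 ± 4.51 CPM of Opn1sw. An Opn1sw UMI was seen in 26.9% of M-opsin-rich cones (median 9746.5 UMIs) and in 5.14% of 5684 rods (median 2455.5 UMIs). With each cell thinned to 2000 UMIs, the shares were 5.38 and 21.7% in WT and 15.6 and 19.7% in NLGF in M-opsin-rich cones and 3% to 8% over the 4 libraries in rods, so the WT female's share lay within the range of rods.

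The libraries held 19128388 to 23473093 UMIs, and their M-opsin-rich cones 538190 to 874054. Across libraries 132 barcodes recurred, 4 members had such a barcode, and 1 barcode was a member in both the WT female and the NLGF male. Scrublet's own threshold marked 4 cells and so did not work as a doublet call, and 29 members lay in the top 6% of its scores. Summed rod markers (12 of 12 detected) were at 23661 and 15139 CPM in WT and 35363 and 15120 CPM in NLGF in members, highest in the NLGF female, against 81794 to 88223 CPM in rods. Summed Müller glia markers (12 of 12 detected) were at 697 and 1222 CPM in WT and 72.5 and 139 CPM in NLGF, and bipolar cell markers (12 of 12) at 327 and 519 CPM in WT and 74.3 and 1026 CPM in NLGF. Of 10 microglia markers 7 had 0 UMIs in members, and of 8 pigment epithelium markers 6, Rpe65 among them.

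The share of M-opsin-rich cones among typed cones was lower in both NLGF libraries. It was 42.1% of typed cones in the WT female (95% Clopper-Pearson interval 35.5 to 48.9) and 40.4% in the WT male (32.9 to 48.1). It was 29.4% in the NLGF female (22.3 to 37.3) and 32.4% in the NLGF male (25.8 to 39.6). The genotypes did not overlap, with means of 41.2% ± 1.22 and 30.9% ± 2.15 (SD, n = 2 each) and a difference of -10.3 percentage points. A two-sided exact permutation test over libraries gave p = 0.33, the smallest that 2 against 2 allows. Intervals cover counting error only. The numbers of S-opsin-rich cones were 92 and 87 in WT and 89 and 98 in NLGF. All cones made up 9.08 and 5.27% in WT and 7.04 and 7.02% in NLGF of the barcodes within the UMI and mitochondrial limits. M-opsin-rich cones made up 3.82 and 2.13% in WT and 2.07 and 2.28% in NLGF of those barcodes, where the genotypes overlapped and the NLGF male lay above the WT male. M-opsin varies from dorsal to ventral, and the region from which the recovered cones came and the genotype cannot be told apart.

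**Figure D2:**
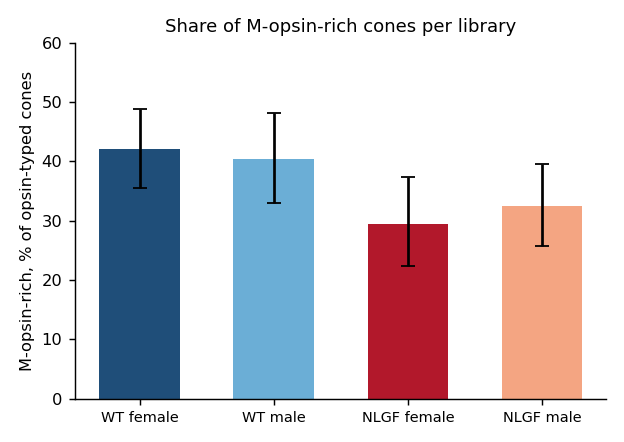
M-opsin-rich cones as a percentage of typed cones (y axis) in each library (x axis), with bars from 0 and lines for 95% Clopper-Pearson intervals. Both WT bars, at 42.1% and 40.4%, stand above both NLGF bars, at 29.4% and 32.4%.

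M-opsin-rich cones were next set against S-opsin-rich cones of the same retinas, in genes that the rule did not use. The genes with the smallest adjusted p included Ccdc136, a neighbour of Opn1sw, and Syndig1l, both lower in M-opsin-rich cones. Smug1, which codes for a uracil DNA glycosylase, Samd7, Kpna2, a nuclear import adaptor, and the transcription factor gene Nr2f2 were higher. Of 8077 genes tested, 96 passed (1.19%, edgeR quasi-likelihood test with library as a block, Benjamini-Hochberg adjusted p under 0.05). Of these, 37 were higher (0.458%) and 59 lower (0.73%) in M-opsin-rich cones. CPM values of this comparison are scaled by TMM factors, and differences are log2 M minus S with their SE. Since cells were typed on opsins, a gene whose reads follow an opsin is not independent of the rule. The filter on low counts keeps a gene with enough counts in either cone type alone.

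Among 32 factors of cone fate and opsin choice 24 were tested. Samd7 and Nr2f2 were higher and none was lower, beside 0.458% higher over all genes tested. The list median was 0.071 beside 0.00297 over all genes. Nr2f2 was at 24.9 and 38.3 CPM in WT and 27.2 and 29.98 CPM in NLGF libraries for M-opsin-rich cones, and 0 and 1.18 CPM in WT and 1.19 and 2.50 CPM in NLGF libraries for S-opsin-rich cones. All 4 M-opsin-rich values lay above all 4 S-opsin-rich values (4.46 ± 0.49, adjusted p = 8.07e-05, edgeR). These rest on 82 UMIs in M- and 4 in S-opsin-rich cones, a 24.7-fold ratio relative to all UMIs with a 95% counting interval of 9.30 to 93. Samd7 was at 113 and 106 CPM in WT and 167 and 122 CPM in NLGF libraries for M-opsin-rich cones, and 34.3 and 26 CPM in WT and 31 and 26.2 CPM in NLGF libraries for S-opsin-rich cones. The cone types did not overlap (2.09 ± 0.16, adjusted p = 1.74e-06, edgeR). Rods carry Samd7 too. After thinning each cell to 2000 UMIs, 15.1% to 35.6% of M-opsin-rich cones, 2.25% to 6.52% of S-opsin-rich cones and 19% to 27% of rods had a Samd7 UMI.

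Thrb, the receptor that favours M-opsin, did not pass. It was at 537 and 547 CPM in WT and 417 and 368 CPM in NLGF libraries for M-opsin-rich cones, and 446 and 394 CPM in WT and 327 and 332 CPM in NLGF libraries for S-opsin-rich cones. M was above S in each of the 4 libraries while the ranges overlapped (0.31 ± 0.082, adjusted p = 0.0931, edgeR). With cones under 0.1 set against cones at 0.9 or more the difference was 0.86 (adjusted p = 4.18e-07). Its partner Rxrg differed by -0.52 ± 0.16, adjusted p = 0.195, and Rorb, which activates S-opsin, by -0.17 ± 0.084, adjusted p = 0.535. The photoreceptor factors Crx (0.025 ± 0.086), Otx2 (-0.42 ± 0.14) and Neurod1 (0.069 ± 0.071) did not pass. The rod factors Nrl (0.74 ± 0.20, adjusted p = 0.123) and Nr2e3 (0.67 ± 0.16, adjusted p = 0.0643) did not pass either. In another setting, cones with at least 5% rod, 0.2% Müller glia or 0.2% bipolar marker UMIs were left out. These limits were set after the data were seen. Nrl, one of the rod markers so used, then differed by -0.0073, and Thrb by 0.38 (adjusted p = 0.000239 for Thrb, edgeR). Of 23 fate factors tested in that setting, Samd7, Nr2f2 and Thrb passed as higher and Otx2 and Rorb as lower. Over all 7497 genes tested there, 103 passed as higher and 134 as lower. With all cones, 9 of 16 thyroid hormone genes were tested and none passed, with a median of 0.045.

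Of 20 listed dorsal and ventral genes, 7 had 0 UMIs in M-opsin-rich cones and only Vax2 got past the filter on low counts. Vax2 did so through its counts in S-opsin-rich cones, so its entry into the test depended on the cone type where it was higher. Vax2 was at 4.74 and 0 CPM in WT and 5.82 and 5 CPM in NLGF libraries for M-opsin-rich cones, and 33 and 18.9 CPM in WT and 23.9 and 25 CPM in NLGF libraries for S-opsin-rich cones. The cone types did not overlap (-2.74 ± 0.45, adjusted p = 0.00326, edgeR), on 10 and 82 UMIs. Without the WT female the adjusted p was 0.0501. Vax2os, an antisense gene that overlaps Vax2, was lower as well (-1.37 ± 0.18, adjusted p = 0.000539). Reads of the pair may not be separable, because the strand setting of the counting is unknown.

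Genes lower in M-opsin-rich cones included listed S-cone genes. Ccdc136 was at 71.1 and 167 CPM in WT and 107 and 149.9 CPM in NLGF libraries for M-opsin-rich cones, and 1710 and 1745 CPM in WT and 1581 and 1649 CPM in NLGF libraries for S-opsin-rich cones. Every M-opsin-rich value lay far below every S-opsin-rich one (-3.79 ± 0.15, adjusted p = 4.45e-10, edgeR). After thinning, 9.68% to 26.2% of M-opsin-rich cones, 94.3% to 97.8% of S-opsin-rich cones and 0.5% to 2% of rods had a Ccdc136 UMI. Syndig1l, a synapse differentiation gene relative, was at 27.3 and 43.6 CPM in WT and 15.5 and 26.6 CPM in NLGF libraries for M-opsin-rich cones, and 230 and 196 CPM in WT and 126 and 151 CPM in NLGF libraries for S-opsin-rich cones. The cone types did not overlap (-2.63 ± 0.16, adjusted p = 1.82e-07, edgeR). Of 13 listed S-cone genes 5 were tested, Ccdc136 and Kcne2 were lower, none was higher, and the median was -0.41. Over all genes tested 0.73% were lower. Kcne2, a potassium channel subunit, was at 663 and 839.5 CPM in WT and 442 and 573 CPM in NLGF libraries for M-opsin-rich cones, and 1050 and 1048 CPM in WT and 771 and 882 CPM in NLGF libraries for S-opsin-rich cones. M was lower in each library though the ranges overlapped (-0.59 ± 0.084, adjusted p = 0.00101, edgeR). With cones under 0.1 against cones at 0.9 or more the Kcne2 difference was -0.20 (adjusted p = 0.267).

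Further lower genes had few M-opsin-rich transcripts. En2, an engrailed homeobox gene, gave 1 UMI in M- and 106 in S-opsin-rich cones, an S to M ratio of 87.8 with a 95% counting interval of 15.4 to 3501. Cdkl1, a protein kinase gene, gave 0 UMIs in M- and 45 in S-opsin-rich cones, so it was at least 12.4-fold lower, taking 3 counts as the group's floor. Wscd2 gave 6 and 98 UMIs, all 6 of the former in the NLGF male. Ngfr, the p75 neurotrophin receptor, was at 12.1 ± 3.95 against 60.3 ± 3.36 CPM (SD, n = 4; -2.27 ± 0.24, adjusted p = 5.15e-05, edgeR). Lower too were Socs3 (-3.20 ± 0.40), an inhibitor of cytokine signalling, Cacna1h (-2.61 ± 0.31), a T-type calcium channel, and Ralyl (-2.49 ± 0.30), an RNA-binding protein. Eya1 (-2.12 ± 0.29), a transcriptional co-activator, and Srcin1 (-1.98 ± 0.34), a Src kinase inhibitor, completed the 12 largest lower genes.

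Ddit3 (CHOP), a stress transcription factor, was the only one of 13 tested PERK/ATF4 genes that passed, and it was lower at 78.6 ± 7.89 against 121 ± 14.5 CPM (-0.63 ± 0.12, adjusted p = 0.0148, edgeR). The list median was 0.12, and 0.73% of all genes tested were lower. DESeq2 gave Ddit3 an adjusted p of 0.789. Leaving out the WT female raised its adjusted p to 0.103, leaving out the WT male to 0.141, and leaving out the NLGF male to 0.0852.

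**Figure D3:**
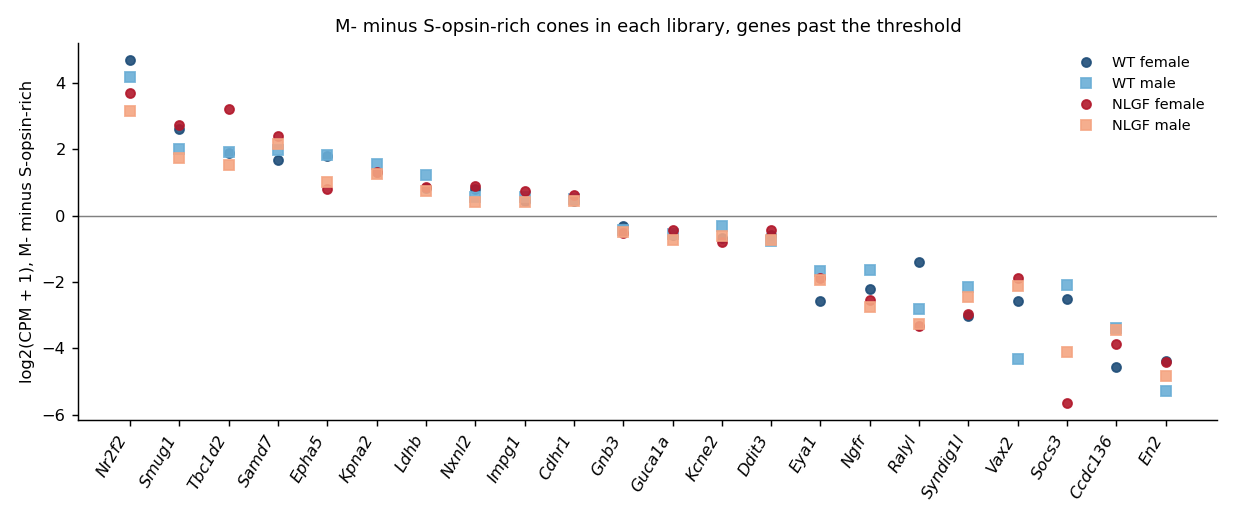
Difference in log2(CPM + 1), M- minus S-opsin-rich cones (y axis), for genes past the threshold (x axis), with 1 point per library. The points of each gene lie on 1 side of 0, which the choice itself required of the genes picked by size. Fitted differences are -3.79 for Ccdc136 and 4.46 for Nr2f2.

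Smug1 had the smallest p among the higher protein-coding genes outside the rule, while Nr2f2 had the largest difference of these. Smug1 was at 290.4 and 286 CPM in WT and 206 and 251 CPM in NLGF libraries for M-opsin-rich cones, and 47 and 70.9 CPM in WT and 29.8 and 75 CPM in NLGF libraries for S-opsin-rich cones. The cone types did not overlap (2.22 ± 0.15, adjusted p = 3.01e-07, edgeR). Kpna2 was at 161 and 138 CPM in WT and 159 and 129.9 CPM in NLGF libraries for M-opsin-rich cones, and 63.5 and 46.1 CPM in WT and 63.2 and 53.7 CPM in NLGF libraries for S-opsin-rich cones. Again the cone types did not overlap (1.38 ± 0.12, adjusted p = 1.24e-05, edgeR). Epha5, an ephrin receptor of axon guidance, was at 87 ± 16 against 33.3 ± 6.89 CPM (1.40 ± 0.19, adjusted p = 0.000855). Lower-count genes on this side were Tbc1d2 (2.14 ± 0.39), a Rab GTPase-activating protein, Arfgef3 (1.99 ± 0.37) and Cap2 (1.98 ± 0.44), an actin regulator. Zfhx4 (1.34 ± 0.29), a homeobox gene, Chrnb4 (1.34 ± 0.29), a nicotinic receptor subunit, and Itprid2 (1.13 ± 0.23) passed too. DESeq2 called none of these 6 (adjusted p from 0.0841 to 1), and without the WT female only Arfgef3 of them passed.

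Some called genes lie near each other or near a gene of the rule (GRCm38, GENCODE M21). Ccdc136 (chromosome 6, 29396309 to 29426994, plus strand) lies 7841 bases from Opn1sw (29376671 to 29388468, minus strand). Nr2f2 (chromosome 7, 70351944 to 70366735, minus strand) neighbours the non-coding genes B130024G19Rik, Gm44532 and Gm44812, which were named after their values were seen. Gm44532 was at 124 ± 22.7 against 4.28 ± 3.63 CPM (4.81 ± 0.30, adjusted p = 1.93e-07, edgeR), B130024G19Rik at 33.3 ± 3.63 against 2.15 ± 0.642 CPM (3.85 ± 0.39) and Gm44812 at 22.3 ± 1.10 against 1.85 ± 1.60 CPM (3.51 ± 0.53). B130024G19Rik overlaps Nr2f2 and Gm44532 on the opposite strand, so these 3 may share reads. On chromosome 15 the non-coding gene D930007P13Rik (21.5 ± 8.67 against 0.608 ± 0.703 CPM) lies 6462 bases from Smug1.

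Few phototransduction genes outside the rule differed. Of 19 tested, Guca1a and Gnb3 were lower and Gucy2f higher, with a median of -0.059. Over all genes tested 0.73% were lower and 0.458% higher. Guca1a was at 2948 and 3018 CPM in WT and 2911 and 2565 CPM in NLGF libraries for M-opsin-rich cones, and 4397 and 4464 CPM in WT and 3936 and 4282 CPM in NLGF libraries for S-opsin-rich cones. The cone types did not overlap (-0.58 ± 0.068, adjusted p = 0.000188, edgeR). Gnb3, the cone transducin beta subunit, was at 2047 ± 239.8 against 2752 ± 197 CPM (-0.43 ± 0.067, adjusted p = 0.00226), and without the WT male its adjusted p was 0.0592. Gucy2f, a photoreceptor guanylate cyclase, was at 39.1 and 18.5 CPM in WT and 109 and 25 CPM in NLGF in M-opsin-rich cones, highest in the NLGF female, the library with the highest rod marker sum. Its call (1.12 ± 0.26, adjusted p = 0.0480) was lost in 10 of 17 alternatives, and it differed by 0.24 without cones that held other classes' marker UMIs (adjusted p = 0.856).

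The 12 tested rod markers had a median of 0.65, and 11 lay above 0. Over all genes tested the median was 0.00297 and 4083 of 8077 lay above 0, with 0.458% called higher and 0.73% lower. Of the rod markers, Pde6a, a rod phosphodiesterase subunit, was higher (0.90 ± 0.18, adjusted p = 0.0155, edgeR). Sag, an arrestin that mouse cones also use, was lower (-0.39 ± 0.066, adjusted p = 0.00454, edgeR). Without the cones that held other classes' marker UMIs Pde6a differed by 0.42 and Sag by -0.38. The 11 rod markers tested there had a median of 0.19. The rod markers, Pde6a and Sag included, helped to choose the cones left out. Pde6a did not pass with DESeq2 (adjusted p = 1) or without the WT female (0.154). Sag did not pass when either WT library was left out (0.143 without the female, 0.103 without the male). The bipolar marker Cabp5 was lower (-1.32 ± 0.29, adjusted p = 0.0374) and did not pass without the WT female (0.219) or the NLGF male (0.140).

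Genes of the outer segment and its cilium gave 4 higher and 0 lower of 24 tested, with a median of 0.060. Over all genes tested 0.458% were higher and 0.73% lower. Cdhr1, a cadherin at the base of the outer segment, was at 775 ± 104 against 543 ± 45 CPM (0.51 ± 0.074). Nxnl2, a relative of rod-derived cone viability factor, was at 310.1 ± 26.2 against 195 ± 12.9 CPM (0.67 ± 0.10). Impg1, an interphotoreceptor matrix proteoglycan, was at 733 ± 125 against 503 ± 67.8 CPM (0.54 ± 0.079), and Rp1l1, an axoneme protein, at 376 ± 22.9 against 271 ± 29.1 CPM (0.48 ± 0.085). Their adjusted p ran from 0.00127 to 0.00655 (edgeR). Without cones that held other classes' marker UMIs the 4 differences were 0.50, 0.67, 0.55 and 0.49 in the same order, and all 4 passed. In that setting 103 of 7497 genes passed as higher. Of 20 glycolysis genes Ldhb, a lactate dehydrogenase subunit, was the only one to pass, at 102 ± 9.84 against 53.8 ± 3.89 CPM (0.93 ± 0.14, adjusted p = 0.00200). None passed of 27 cone synapse, 27 ER chaperone, 12 cytosolic heat shock, 11 immediate early, 15 oxidative stress, 13 mitochondrially encoded, 15 circadian clock, 9 p53 and cell death, 7 visual cycle or 12 APP family and secretase genes tested. App was at 33.2 and 58.2 CPM in WT and 3.88 and 56.6 CPM in NLGF libraries for M-opsin-rich cones, and 47 and 87.5 CPM in WT and 68 and 76.2 CPM in NLGF libraries for S-opsin-rich cones (-0.87 ± 0.29, adjusted p = 0.251, edgeR).

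The same genes were followed along the opsin ratio, in 5 ranges. Ccdc136 averaged 83.1 ± 40.9 CPM under 0.1, 443 ± 95.3 from 0.1 to 0.3, 1011 ± 123 from 0.3 to 0.7, 1630 ± 37.2 from 0.7 to 0.9 and 1613 ± 101 from 0.9 up (SD, n = 4 libraries). Its mean was thus higher in each range up to 0.9. Syndig1l averaged 18.3 ± 8.12 CPM under 0.1 and was at 179.9 ± 49.1 in the intermediate range, beside 193 ± 59.1 and 143 ± 27.4 above it. Smug1 averaged 265 ± 34.1, 145 ± 38.9 and 47.1 ± 22 CPM in the lowest, middle and highest ranges. Samd7 averaged 128 ± 28.9, 67.4 ± 34.5 and 24.2 ± 7.08 CPM there, and Nr2f2 31.7 ± 4.97, 1.83 ± 3.67 and 2.02 ± 2.81 CPM. Thrb was lowest in the cones with almost no M-opsin, at 249 ± 16.7 CPM from 0.9 up, beside 460.2 ± 91.9 from 0.7 to 0.9, 524 ± 143 in the middle and 452 ± 73.2 under 0.1. The range from 0.1 to 0.3 holds only 5 to 8 cones per library. These are descriptions with no test.

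**Figure D4:**
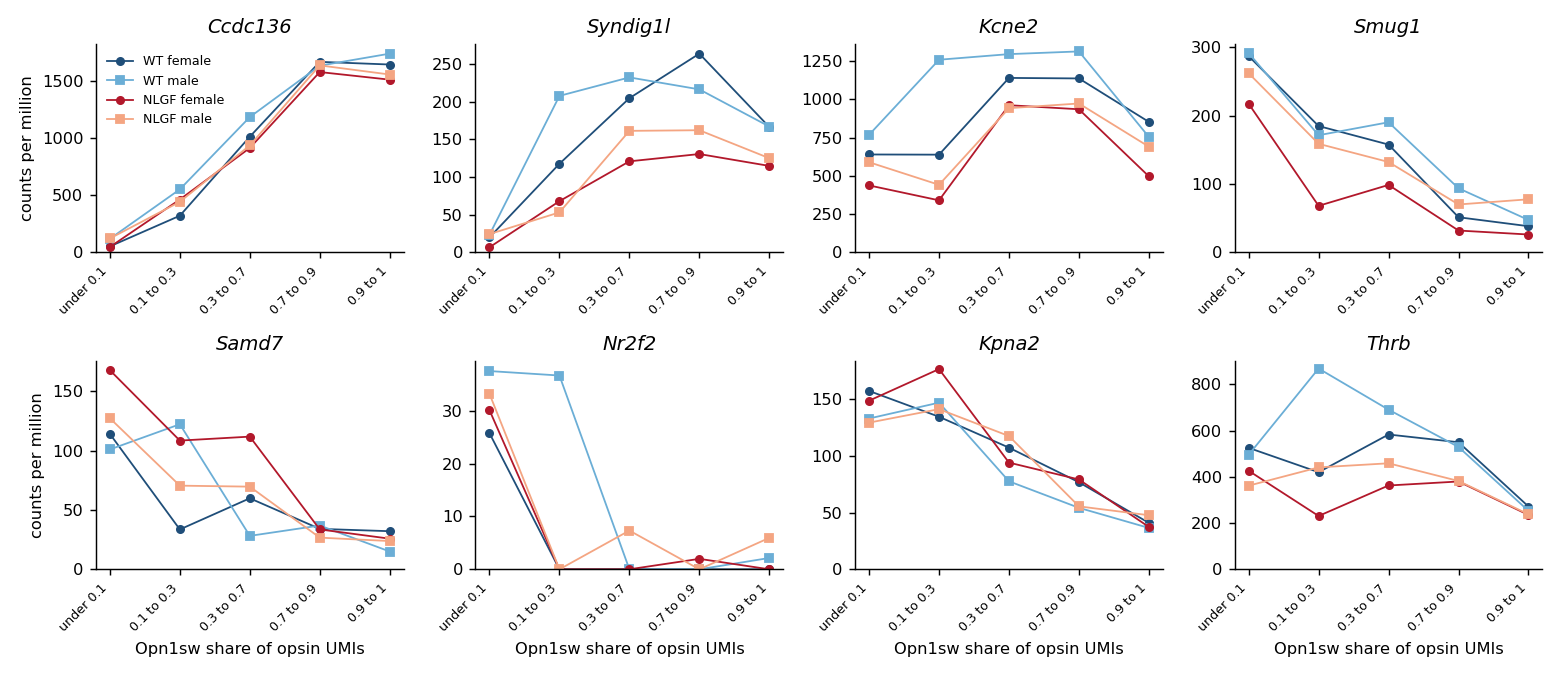
CPM (y axes) of 8 genes by Opn1sw share of opsin UMIs (x axes, 5 ranges), with 1 line per library. Mean Ccdc136 climbs from 83.1 to 1613 CPM, and mean Thrb is lowest at 249 CPM from 0.9 up.

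NLGF was then compared with WT within M-opsin-rich cones. Apoe and Sparc were lower in NLGF, and no gene of the phototransduction list passed with all members. Of 7778 genes tested 2 passed (0.0257%), and 296 had an unadjusted p under 0.05. Single libraries moved this count, to 7 without the WT female, 1 without the male WT library, 62 without the NLGF female and 152 without the NLGF male. The targeted gene App was at 33.4 and 58.3 CPM in WT and 3.91 and 56.7 CPM in NLGF libraries, and the genotypes overlapped (-0.51 ± 0.66, adjusted p = 0.994, edgeR). The knock-in changes the sequence of App and not its promoter, so this level does not check the labels.

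Apoe, a lipid carrier abundant in Müller glia, was at 378 and 885 CPM in WT and 33.2 and 36.7 CPM in NLGF libraries (-4.16 ± 0.43, adjusted p = 0.0307, edgeR). Sparc, a secreted matrix glycoprotein, was at 59.6 and 90.1 CPM in WT and 1.96 and 5.01 CPM in NLGF libraries (-4.30 ± 0.48, adjusted p = 0.0343). The genotypes did not overlap for either gene. A single barcode held 275 of 317 Apoe UMIs of the WT female and another 649 of 668 of the WT male. For Sparc a single barcode held 45 of 50 and 65 of 68 UMIs. Each WT library had 1 member with at least 1% Müller marker UMIs, with 27195 and 35579 UMIs in all, both in the top 6% of doublet scores, and NLGF had none. Without these 2 members, a setting chosen after seeing the data, Apoe differed by -0.17 (adjusted p = 0.995). Apoe is itself one of the Müller markers that set which members were left out, so its fall follows in part from that choice. In the same setting 0 of 7602 genes passed by edgeR, and 281 had an unadjusted p under 0.05. Sparc fell below the filter on low counts there, so it was not tested in that setting. Of 12 Müller markers 7 got past the filter on low counts, which high values in the WT libraries alone can satisfy, and of these Apoe passed the test. Without all cones that held other classes' marker UMIs 2 of the 12 got past the filter and none passed the test. These 12 markers helped to choose the cones left out. Slc1a3 (-4.13 ± 0.58), Rlbp1 (-2.81 ± 0.40) and Dkk3 (-4.13 ± 0.62) of that list and Clu (-1.17 ± 0.17) had an adjusted p of 0.107. Crym, which binds thyroid hormone, differed by -2.67 ± 0.46, adjusted p = 0.228, with 36 of 38 UMIs of the WT male in 1 barcode.

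**Figure D5:**
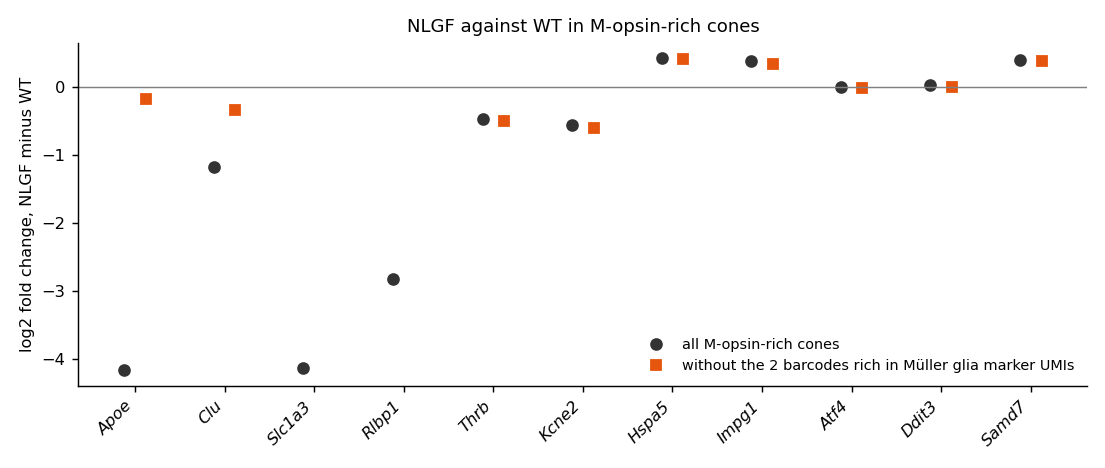
Log2 fold change of NLGF minus WT in M-opsin-rich cones (y axis) for 11 genes (x axis). Circles show all cones, and squares the cones without the 2 members rich in Müller marker UMIs. Slc1a3 and Rlbp1 have no square, because they fell below the filter on low counts without those members. Apoe moves from -4.16 to -0.17 and Thrb from -0.47 to -0.50. Apoe is one of the markers that chose the 2 members left out.

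Among cone genes, Opn1mw, given as a description, averaged 5589 ± 106 CPM in WT and 5608 ± 888 CPM in NLGF (SD, n = 2 each). Thrb was at 540.1 and 549 CPM in WT and 420.4 and 369 CPM in NLGF libraries. Both NLGF values lay below both WT values, and the difference did not pass (-0.47 ± 0.16, adjusted p = 0.994, edgeR). Such a separation of 2 against 2 libraries gives at best p = 0.33 in a two-sided exact permutation test, so it is weak on its own. In S-opsin-rich cones Thrb was at 444 and 392 CPM in WT and 325 and 331 CPM in NLGF libraries (-0.35 ± 0.10, adjusted p = 0.866, edgeR). In rods Thrb went the other way, at 0.656 and 0.728 UMIs per 10000 in WT and 0.828 and 0.808 in NLGF libraries. Kcne2 was at 667 and 841 CPM in WT and 446 and 574 CPM in NLGF libraries (-0.56 ± 0.19, adjusted p = 0.994), also without overlap. Nr2f2 (-0.13 ± 0.33), Samd7 (0.39 ± 0.19), Ccdc136 (0.14 ± 0.35) and Impg1 (0.38 ± 0.16) had adjusted p values of 0.994 each. Without cones that held other classes' marker UMIs, Sparc fell below the filter on low counts and was not tested, and Apoe did not pass. In that setting 3 of 7048 genes passed, 1 higher and 2 lower in NLGF. The lower ones, named after their values were seen, were Pde6g, the inhibitory subunit of the rod phosphodiesterase (-0.43, adjusted p = 0.0396, edgeR), and the gene model Gm42418 (-0.40, adjusted p = 3.35e-05). With all members Pde6g was at 3562 and 2781 CPM in WT and 3902 and 2018 CPM in NLGF libraries, and the genotypes overlapped (-0.10 ± 0.27, adjusted p = 0.994, edgeR). In rods it was at 8558 and 8826 CPM in WT and 7396 and 7599 CPM in NLGF libraries, and both NLGF values lay below both WT values. The part of rod transcripts in this call was not tested. Trmt11, Cdk5rap1, Mink1, Dap3 and Rnf150, named on the higher side, had differences from 0.86 to 2.68 and adjusted p values of 0.994.

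Stress genes gave no call. Of 28 PERK/ATF4 genes 13 were tested, 0 passed and the median was 0.071, beside 0.00304 over all genes. Atf4, the central factor of that response, was at 193 and 184 CPM in WT and 174 and 202 CPM in NLGF libraries (-0.0025 ± 0.16). Ddit3 was at 72.7 and 83.5 CPM in WT and 88 and 71.8 CPM in NLGF libraries (0.028 ± 0.22). The genotypes overlapped for both genes. Atf5 gave 9 and 5 UMIs in WT and 5 and 2 in NLGF members, too few to test. Of 27 ER chaperone genes 0 passed, with a median of 0.082. Hspa5 (BiP), the main ER chaperone, was at 507 and 433 CPM in WT and 619.8 and 641 CPM in NLGF libraries. Both NLGF values lay above both WT values, and the difference did not pass (0.42 ± 0.16, adjusted p = 0.994, edgeR). As for Thrb, a separation of 2 against 2 libraries is weak on its own. None passed of 24 outer segment, 19 phototransduction, 27 cone synapse, 20 glycolysis, 12 cytosolic heat shock, 9 immediate early, 15 oxidative stress, 13 mitochondrially encoded, 14 circadian clock, 9 p53 and cell death, 7 visual cycle or 11 APP family and secretase genes tested. Counts were simulated with these cell sums, 200 changed genes and each gene's spread set by the fitted trend. There the test recovered 4% of genes changed 1.5-fold, 30.4% changed 2-fold and 92.9% changed 4-fold. Most changes of 2-fold or less were thus missed even in simulation. Real genes can vary more than the trend, so these shares are not the detection rates of the data. In the data Slc1a3 and Dkk3 differed by -4.13 each and did not pass.

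S-opsin-rich cones of the same animals gave 0 of 8286 genes by edgeR (0.0%; 451 had an unadjusted p under 0.05), and DESeq2 gave 0 calls. Of the genes named there by smallest p, Nfib, Socs5, Retreg3 and Tcf4 had differences from 0.56 to 2.74, and Pcdh7, Rd3l, Plekhb1 and Pgk1 from -2.89 to -0.44, with adjusted p from 0.682 to 0.866 (edgeR). The test of whether the genotype difference itself differed between cone types gave 1 of 8840 genes (0.0113%), which was Sparc (-7.75 ± 0.97, adjusted p = 0.0486, edgeR). Sparc was at 7.57 and 2.35 CPM in WT and 120.3 and 6.21 CPM in NLGF libraries for S-opsin-rich cones, and 67 of 102 UMIs of the NLGF female came from 1 barcode. Without the NLGF female the Sparc difference was -4.20 and did not pass (adjusted p = 0.568), and from 3000 UMIs its adjusted p was 0.0845. Of the other genes named by smallest p, Dkk3, Apoe, Slc1a3 and Rlbp1 had interaction differences from -6.20 to -4.69 (adjusted p 0.0792 to 0.184), and Dqx1, Morc3, Ankrd54, Narf and Mtpap from 1.32 to 4.77 (adjusted p 1). Without cones of at least 1% Müller marker UMIs 0 of 8748 genes passed by edgeR, and 238 had an unadjusted p under 0.05. Sparc fell below the filter on low counts there and was not tested. With all cones DESeq2 gave 0 calls.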

How the data were processed

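Counts of UMIs per gene and barcode were deposited by the authors as 1 matrix per library, with 32285 genes. The file headers name Cell Ranger 6.1.1, and the submitters' processing notes list Cell Ranger 3.1.0, STAR and mm10. Use of strand and of intronic reads was not given in the sources used here.

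Counts were summed per library and cone type and tested with edgeR 4.0.16 (quasi-likelihood, TMM factors, filterByExpr, Benjamini-Hochberg adjustment, threshold 0.05). Genotype fits had genotype alone; M against S and the interaction had library as a block. The 7 genes of the rule are not counted among tested genes. The SE is the size of the log2 difference over the root of F. Alternatives were DESeq2 1.42.0, other scalings, filters and gates, doublet removal, thinning and leaving out each library. The tests were tried on simulated data with 200 changed genes. Positions came from GENCODE M21 (32158 gene IDs matched) and promoters from RefSeq.

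Genes named were, for M against S, up to 12 per direction by log2 size among calls of the same sign in all 4 libraries, and for genotype up to 12 per direction among calls, filled to 6 by smallest p. Up to 5 per direction by smallest p came from S-opsin-rich cones and the interaction, and up to 6 by smallest p from each list, beside set stress genes. X-inactivation, Y-linked, mitochondrial and unnamed genes were left out of the ranked picks. Sag, Pde6a, Cabp5, Vax2os, Pde6g and Gm42418 between genotypes, the non-coding neighbours, and Ccdc136, Nr2f2 and Samd7 between genotypes, were named after their values were seen. List members that these rules name and that did not pass are given within their list's counts unless the text describes them, and 1 named gene is not reported here. The members and lists were chosen with earlier results of these data known.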

Additional observations from a re-analysis of the deposited data

Results flagged for a closer look

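The genotype difference of Sparc differed between M- and S-opsin-rich cones in a test of the interaction, by -7.75 on the log2 scale (edgeR, adjusted p = 0.0486). It was at 58.8 and 89.2 CPM in WT and 1.93 and 4.94 CPM in NLGF libraries for M-opsin-rich cones, and at 7.57 and 2.35 CPM in WT and 120.3 and 6.21 CPM in NLGF libraries for S-opsin-rich cones. Summed Müller glia markers were at 697 and 1222 CPM in WT and 72.5 and 139 CPM in NLGF libraries for M- and 254 and 129 CPM in WT and 992 and 219 CPM in NLGF libraries for S-opsin-rich cones, highest in the same libraries as Sparc. Without the NLGF female the difference was -4.20 (adjusted p = 0.568), and none of the 3 genes then called was Sparc. It did not pass from 3000 UMIs (adjusted p = 0.0845) or with DESeq2 (0.5).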

How the results depend on the processing

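The M-opsin-rich share differed between NLGF and WT by -8.32 to -11.3 points under the other gates and by -8.77 to -11.8 without any single library. Genes called between M- and S-opsin-rich cones numbered 41 with DESeq2 (all 41 among the 96), 254 with no filter, 232 with the stricter ratio, 47 in thinned cells, 24 with intermediate in place of M-opsin-rich cones, 237 without cones that held other classes' marker UMIs, and 63 to 138 without any single library. Between genotypes in M-opsin-rich cones they numbered 4 with DESeq2, 61 with no filter, 0 without top doublet scores, 0 with the stricter ratio, 0 in thinned cells, 0 at 10% mitochondrial, 0 without Müller-rich cones, 3 without marked cones (none of them among the 2), 0 without shared barcodes, and 1 to 152 without any single library, where a lone sample is assumed to vary like the other group. In S-opsin-rich cones they numbered 54 with no filter, 1 with the stricter ratio, 2 without marked cones and 5 to 42 without any single library. For the interaction they numbered 0 with DESeq2, 40 with no filter, 0 without top doublet scores, 3 with the stricter ratio, 0 from 3000 UMIs, 0 at 10% mitochondrial, 0 without Müller-rich cones, 2 without marked cones, 4 without shared barcodes and 3 to 34 without any single library. The cause of these changes was not tested. The settings on Müller-rich, marked and shared barcodes were chosen after seeing the data.

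With sex as a replicate block, genes called between genotypes numbered 27 in M-opsin-rich and 0 in S-opsin-rich cones. Same-sex deviations correlated at 0.319 and 0.0845 across genes. The labels name no litter or batch, so whether same-sex libraries share more than their sex is not known. With that block Slc1a3 (0.00589), Rlbp1 (0.00412), Dkk3 (0.000353), Clu (0.00071) and Crym (0.0126) passed between genotypes in M-opsin-rich cones (edgeR, adjusted p).

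Of values of named genes under alternatives, 1211 kept side and direction, 93 lost and 85 gained a call, and 31 reversed. With intermediate in place of M-opsin-rich cones these were Gucy2f -0.0046, Syndig1l 0.044, Kcne2 0.24, Nrl -0.22, Crx -0.017, Sag 0.021 and Pde6a -0.061. Nrl was -0.0073 without marked cones, and Crx -0.067 in thinned cells and -0.068 without the NLGF female. Between genotypes App was 1.14 without top doublet scores and 0.31 without the NLGF female. Atf4 was 0.0060 with DESeq2, 0.0072 with RLE factors, 0.089 at 10% mitochondrial, 0.030 and 0.091 without the WT or NLGF female and 0.027 without shared barcodes. Ddit3 was -0.24 with the stricter ratio, and -0.069 and -0.13 without the WT or NLGF female. Nr2f2 was 0.23 at 10% mitochondrial, 0.20 without the WT male and 0.17 without marked cones. Ccdc136 was -0.37 without the WT female and -0.13 without the NLGF male. Pde6g was 0.015 at 10% mitochondrial and 0.089 and 0.30 without the WT female or the NLGF male. Over the 4 ways of leaving out a library, the lowest and highest values were -3.48 and 0.31 for App, -0.11 and 0.091 for Atf4, -0.13 and 0.18 for Ddit3, -0.42 and 0.20 for Nr2f2, -0.37 and 0.85 for Ccdc136 and -0.66 and 0.30 for Pde6g. Apoe in the interaction was 0.24 without Müller-rich and 0.024 without marked cones, which Apoe as a Müller marker helped to choose.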
